A study of Rattus norvegicus with 47 samples.

Results

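The step from 2 to 3 hours post stroke was examined in the blood of rats as the difference of 2 deposited means, 3 h minus 2 h, for each of 27596 probe sets on the array. It rests on 16 of the 47 arrays of the series, 8 taken at 2 h and 8 at 3 h. All arrays came from 8 male spontaneously hypertensive rats (SHR), 16 weeks old, each with its middle cerebral artery (MCA) blocked by a thread. The same rats were bled at 0 h, before anesthesia, and at 1, 2, 3 and 6 h from a tail vein, and at 24 h from the heart under terminal anesthesia. There were 8 arrays at each time point and 7 at 6 h. SHR is an inbred strain with raised blood pressure. The thread was withdrawn under a second anesthesia shortly before the 2 h sample, so both samples of the step were taken after reperfusion. No sham-operated rats were used in the comparison, and stroke, surgery, anesthesia, repeated bleeding and time of day cannot be told apart in it.

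Blood carries its mRNA mainly in white cells, reticulocytes and platelets. After tissue injury neutrophils are released into blood while lymphocytes leave it, under the influence of adrenal hormones and cytokines. Genes answering a hormone or cytokine directly usually change first, and products such as receptors, secreted inhibitors and folding enzymes follow later. Steroid hormones such as corticosterone act through the glucocorticoid receptor, whose targets include Sgk1, Fkbp5 and Per1. Interleukin 1 acts through a receptor chain, Il1r1, and its partner Il1rap, whereas interleukin 6 acts through Il6st and Stat3 and is held back by Socs3. In whole blood, fewer cells of a type and less RNA per cell cannot be told apart.

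Across the array 701 probe sets, 2.54% of the 27596 tested, differed between 2 h and 3 h at an adjusted p below 0.05. The signal was higher at 3 h in 364 of them (1.32% of those tested) and lower in 337 (1.22%). At an unadjusted p below 0.05 there were 2345 higher and 1726 lower. The median step of all probe sets was 0.016 on the log2 scale, and 56.2% of steps were above 0. Among the called probe sets the step exceeded 0.5 (log2) in 119 of the higher and 96 of the lower ones, and exceeded 1, a doubling, in 17 and 3. Each of the 701 steps was larger than the larger of its SDs at 2 h and 3 h, which the threshold for a call fixes. The SDs had a median of 0.14 at 2 h and 0.16 at 3 h, and 65.7% of probe sets varied more at 3 h. By the same test 10216 probe sets differed between 0 and 1 h, 2603 between 1 and 2 h, 737 between 3 and 6 h and 4404 between 6 and 24 h.

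**Figure D1:**
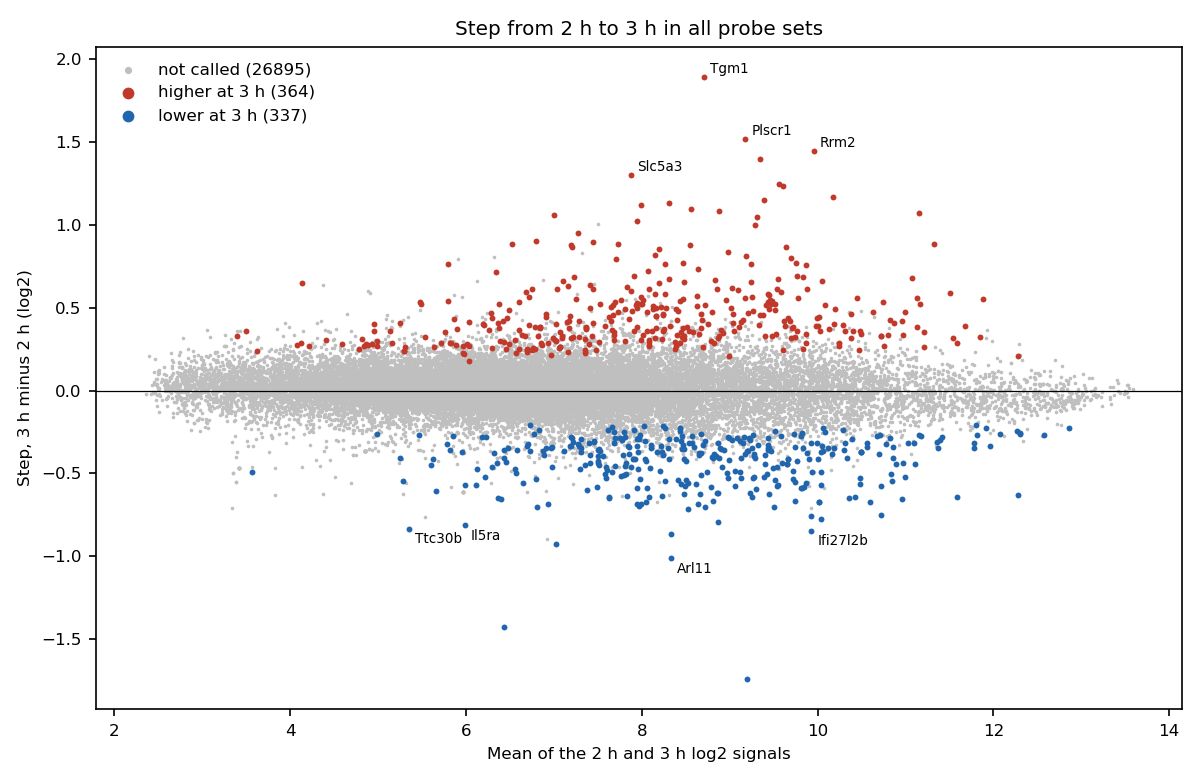
Step from 2 h to 3 h (log2, vertical axis) against the mean of the 2 h and 3 h log2 signals (horizontal axis), 1 point per probe set. The 364 called rises are red, the 337 called falls blue and the uncalled probe sets grey. The rises reach 1.89 (Tgm1) while the falls with a gene symbol reach -1.01 (Arl11). The smallest called step is 0.18 in size, and called and uncalled steps overlap because a call also depends on the SD.

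The largest rise was that of Tgm1, transglutaminase 1, an enzyme that crosslinks proteins. In the table's annotation, on genome build rn5, it lies on chromosome 15 from 38268112 to 38281538, on the minus strand. Its log2 signal was 7.76 ± 0.32 at 2 h and 9.65 ± 0.44 at 3 h (mean ± SD over 8 arrays, as for all values that follow at these times), a rise of 3.70-fold with a 95% interval of 1.55 to 2.23 on the log2 scale (adjusted p = 2.18e-06). The intervals of mean ± SD at the 2 times did not overlap. The profile began at 6.60 ± 0.32, was 10.28 ± 0.51 over the 7 arrays of 6 h, and was 7.56 ± 0.48 at 24 h.

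Next came Plscr1, a phospholipid scramblase of the cell membrane that interferon is known to induce (chromosome 8, 99108914 to 99129253, plus strand). It rose from 8.42 ± 0.31 to 9.93 ± 0.47, 2.86-fold (adjusted p = 3.02e-05). Rrm2, the small subunit of ribonucleotide reductase, which makes deoxynucleotides for DNA synthesis (chromosome 6, 60756211 to 60761048), rose from 9.23 ± 0.29 to 10.68 ± 0.29, 2.72-fold (adjusted p = 2.24e-06). A second Rrm2 probe set, placed on chromosome 19, rose by 1.40 on the log2 scale. The probe sets may measure near-identical sequences and are not independent evidence of one rise.

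The remaining large rises included a membrane carrier, a surface receptor and a transcription factor. Slc5a3, a carrier of sodium and myo-inositol, rose from 7.23 ± 0.26 to 8.52 ± 0.39 and Mrps6, a mitochondrial ribosomal protein, from 8.34 ± 0.080 to 9.42 ± 0.31. Slc5a3 lies within the span of Mrps6 on chromosome 11 and on the same strand, so signal from one can reach the other. Epha4, a receptor for ephrins, rose from 7.44 ± 0.33 to 8.56 ± 0.45. Ms4a6a, a membrane protein of monocytes and macrophages, rose from 8.82 ± 0.28 to 9.97 ± 0.37, and Tfec, a transcription factor of the macrophage lineage, from 8.94 ± 0.57 to 10.18 ± 0.55. St3gal4, which adds sialic acid to surface glycans that selectins bind, rose from 8.99 ± 0.23 to 10.22 ± 0.26. Hk2, a hexokinase and the first enzyme of glycolysis, rose from 8.01 ± 0.13 to 9.11 ± 0.26. For all of these genes mean ± SD at 3 h lay above mean ± SD at 2 h with no overlap, narrowly so for Tfec.

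**Figure D2:**
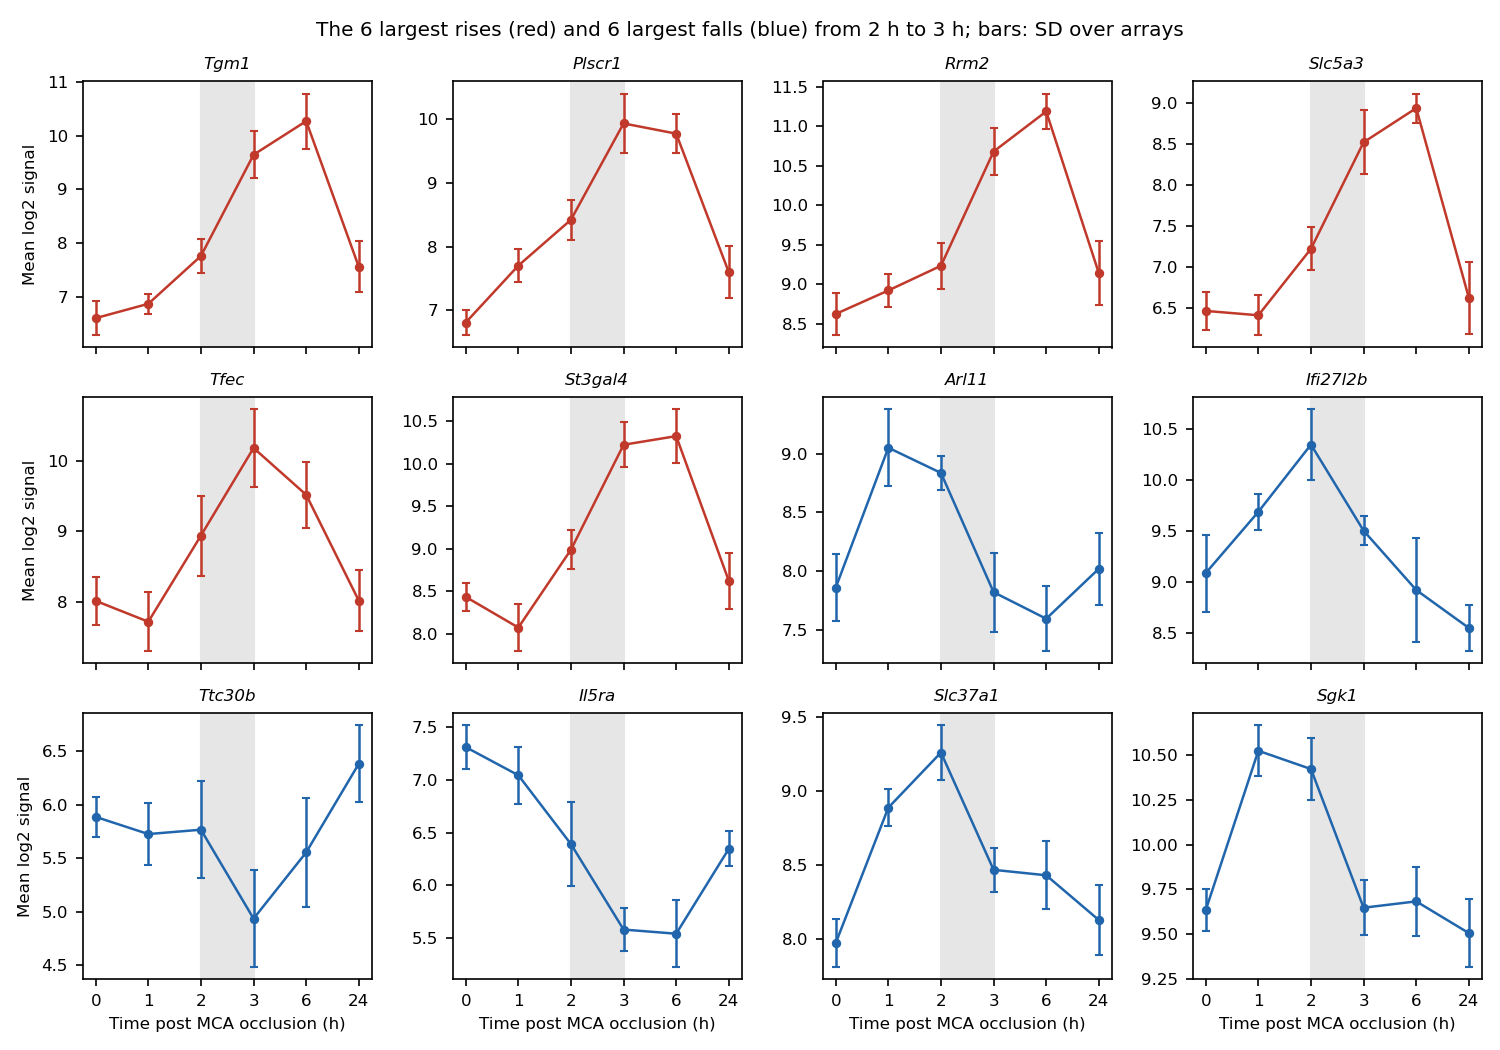
Mean log2 signal (vertical axis) against time post MCA occlusion in hours (horizontal axis, evenly spaced points) for the 6 genes with the largest rises (red) and the 6 with the largest falls (blue) from 2 h to 3 h. Bars are the SD over 8 arrays (7 at 6 h) and the grey band marks the step. Arl11, Slc37a1 and Sgk1 are high at 1 and 2 h and drop within the band, and Tgm1, Plscr1 and Slc5a3 climb within it.

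Among genes with a symbol, the largest fall was that of Arl11, a small GTPase of the ADP-ribosylation factor family expressed in blood cells (chromosome 15, 45448923 to 45451069, plus strand). Its signal was 8.84 ± 0.14 at 2 h and 7.82 ± 0.33 at 3 h, which placed it 2.02-fold lower (adjusted p = 3.02e-05). At 0 h it had been 7.86 ± 0.29, so the 3 h mean lay next to the value before occlusion. Ifi27l2b, of an interferon-inducible family, fell from 10.35 ± 0.35 to 9.50 ± 0.14 (adjusted p = 2.67e-04). Sgk1, the serum and glucocorticoid regulated kinase, fell from 10.42 ± 0.17 to 9.65 ± 0.15 (adjusted p = 1.00e-05) and had been 9.63 ± 0.12 at 0 h. Slc37a1, an exchanger of glucose 6-phosphate and phosphate, fell from 9.26 ± 0.18 to 8.47 ± 0.15 (adjusted p = 1.00e-05). Each of these 4 genes had SD ranges at 2 h and 3 h that did not overlap.

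Other large falls included that of an enzyme of lipid breakdown. Nceh1, which hydrolyses cholesterol esters, fell from 8.88 ± 0.17 to 8.17 ± 0.17. Sh2d3c, an adaptor protein of lymphocyte adhesion and migration, fell from 9.86 ± 0.13 to 9.15 ± 0.27. Il5ra, the interleukin 5 receptor chain of eosinophils, fell from 6.39 ± 0.40 to 5.58 ± 0.20, after 7.31 ± 0.21 at 0 h. Prrg4, Ect2l, Angptl1 and Ttc30b fell by 0.70, 0.70, 0.70 and 0.83 on the log2 scale. The steps of Ect2l, Angptl1 and Ttc30b were less than 2 of their larger SDs. The calls of Prrg4, Ect2l, Angptl1 and Ttc30b were lost under the unmoderated Welch test, and those of the other genes described so far were kept. A pair of probe sets without a symbol fell further, by 1.74 (unplaced in the annotation) and 1.43 (chromosome 10). Both lack a gene name and are not described further.

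To ask which genes turned on late and which started to return, each called probe set was sorted by its earlier change, 1 h minus 0 h, which shares no arrays with the step. A change was late where the earlier change was not called and was under 0.2 in size, continuing where the earlier change was called in the same direction, and returning where it was called in the opposite direction. The names refer to the first hour alone, so a late change may have begun between 1 and 2 h. Of all probe sets 21.3% were called higher at 1 h than at 0 h and 15.7% lower. The 364 rises comprised 159 late rises, 69 continuing rises and 118 rises of genes that had been lowered at 1 h. The 337 falls comprised 113 late falls, 40 continuing falls and 173 falls of genes that had been raised at 1 h. A further 29 fitted no class, among them Tgm1, Il1rap and Hk2, whose 1 h changes were 0.2 or more in size without being called. Against the shares of all probe sets called at 1 h, the continuing shares were lower and the returning shares higher. Whether late changes exceeded the share of all probe sets meeting the late rule was not tested.

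The 159 late rises had median changes from 0 h of 0.011 after 1 h, which the rule keeps near 0, and 0.078 after 2 h, when the upper quartile was 0.30. The median then reached 0.45 at 3 h, and was 0.44 at 6 h and 0.10 a day after occlusion. Their median step was 0.38, and 43 of them rose by more than 0.5. In 23 of the 159 the 3 h mean was nearer the 0 h mean than the 2 h mean was. Besides Slc5a3, Epha4 and Mrps6, their largest rises included that of Pter, a phosphotriesterase-related protein, which went from 8.14 ± 0.29 before occlusion to 8.21 ± 0.30 after 1 h, and rose from 8.79 ± 0.29 to 9.79 ± 0.19 in the step. The means of Slc5a3, Epha4 and Pter at 2 h already stood 0.76, 0.76 and 0.65 above 0 h. Msr1, a scavenger receptor, rose from 7.00 ± 0.24 to 7.90 ± 0.31, and Mrc1, the mannose receptor, from 7.28 ± 0.33 to 8.17 ± 0.33. Both are receptors of macrophages and were picked after their values had been seen. Vcan, a proteoglycan made by monocytes, had means of 9.39 at 0 h and 9.48 at 1 h, stood 1.48 above 0 h at 2 h, and rose from 10.88 ± 0.42 to 11.76 ± 0.34 (adjusted p = 0.00464). In the monocyte list as a whole 1 gene was called higher and 1 lower, 6 steps of 12 were above 0 and the median step was 0.0062.

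The 113 late falls had median changes from 0 h of -0.0061 after 1 h and 0.14 after 2 h, and of -0.21 at the end of the step. Their median step was -0.36, and 20 of them fell by more than 0.5. In 49 of the 113 the 3 h mean was nearer the 0 h mean than the 2 h mean was. These 49 were thus also moving back towards 0 h, from a higher mean at 2 h. Among those with a symbol the largest were Ttc30b, Sh2d3c and Angptl1, and the class also held a pair of genes of lymphocytes and mast cells. Il1rl1, a receptor for an alarmin cytokine of the interleukin 1 family, was 7.18 ± 0.21 at 0 h and fell from 6.73 ± 0.28 to 6.08 ± 0.35 in the step (adjusted p = 0.0110), after 7.37 ± 0.19 at 1 h. Its call was lost with the Welch test. Gzma, a protease of cytotoxic granules, fell by 0.60 on the log2 scale from 9.60 ± 0.29 (adjusted p = 0.0457), with overlapping SD ranges. The call of Gzma was lost with the Welch test, with the spread pooled over all time points, with the intensity trend and after quantile normalization of the means.

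From 2 h on, continuing rises were the class with the median furthest from 0 h. Their 69 probe sets had median changes from 0 h of 0.39 (1 h), 0.94 (2 h), 1.44 (3 h) and 1.52 (6 h). Serpinb1a, an inhibitor of neutrophil proteases, began at 8.97 ± 0.29, stood at 9.35 ± 0.16 after 1 h, rose from 10.62 ± 0.15 to 11.69 ± 0.24 in the step, and was 12.47 ± 0.054 by 6 h. Clec4b2, a lectin receptor of myeloid cells, rose from 8.78 ± 0.24 to 9.83 ± 0.37 in the step and was 11.04 ± 0.21 at 6 h. Both stood further from 0 h at 6 h than at any other time point measured. Il1r1, the signalling receptor for interleukin 1, rose from 7.44 ± 0.14 to 8.46 ± 0.29 (adjusted p = 8.87e-06). Plscr1 and Rrm2 completed the 5 largest of this class. The second Rrm2 probe set was a late rise instead, as its 1 h change of 0.15 was not called.

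Only 40 probe sets continued to fall, with median changes from 0 h of -0.39 (1 h), -0.32 (2 h) and -0.66 (3 h). Rtp4, an interferon-inducible chaperone of receptors, fell from 7.95 ± 0.32 to 7.30 ± 0.39 and kept to lower means afterwards, 7.00 ± 0.32 at 6 h and 6.36 ± 0.28 at 24 h. Slc6a12, the betaine transporter, went from 9.21 ± 0.20 to 8.28 ± 0.22 in the first hour, and fell from 8.07 ± 0.24 to 7.57 ± 0.18. Timm21, of the mitochondrial import machinery, fell from 6.81 ± 0.29 to 6.32 ± 0.26, and Tmem104 and LOC100910714 fell by 0.46 and 0.47. The steps of Rtp4, Timm21 and LOC100910714 lost their calls with the Welch test.

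The 173 falls of genes raised at 1 h were the largest class by these rules, but not with the pooled spread (194 against 266 late rises) or with a limit of 0.3 on the early change (175 late rises). Their median changes from 0 h were 0.55 (1 h), 0.86 (2 h), 0.44 (3 h), 0.29 (6 h) and 0.18 (24 h). In 170 of the 173 the mean at 3 h was nearer the 0 h mean than the mean at 2 h was, which the rule for the class largely fixes. Sgk1 and Arl11 were back within 1 SD of their 0 h means by 3 h, whereas Slc37a1 at 8.47 ± 0.15 was still above its 0 h value of 7.97 ± 0.16. Prrg4 climbed from a mean of 6.74 through 7.65 to 8.31 over the first pair of hours before it fell to 7.62. Fas, a death receptor, fell from 9.65 ± 0.19 to 9.13 ± 0.18 (adjusted p = 0.00178) after 8.66 ± 0.31 at 0 h.

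In the 118 genes and unnamed probe sets that were low at 1 h and rose in the step, the median changes from 0 h were -0.45 (1 h), -0.43 (2 h) and -0.030 (3 h). St3gal4 went beyond its starting level, from 8.44 ± 0.17 before occlusion through 8.08 ± 0.28 after 1 h to 10.22 ± 0.26 after the step. Cdo1, cysteine dioxygenase, went from 7.15 ± 0.25 to 6.48 ± 0.41 in the first hour and rose from 6.78 ± 0.29 to 7.64 ± 0.16 (adjusted p = 6.82e-05). Maoa, a monoamine oxidase, rose from 6.35 ± 0.23 to 7.25 ± 0.53, Plcb1, a phospholipase C, from 7.77 ± 0.38 to 8.62 ± 0.41 and Edil3, an integrin ligand, from 7.75 ± 0.37 to 8.56 ± 0.47. The SD ranges of Edil3 overlapped, and all 3 genes lost their calls with the Welch test. In 81 of the 118 the 3 h mean was nearer 0 h than the 2 h mean was.

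**Figure D3:**
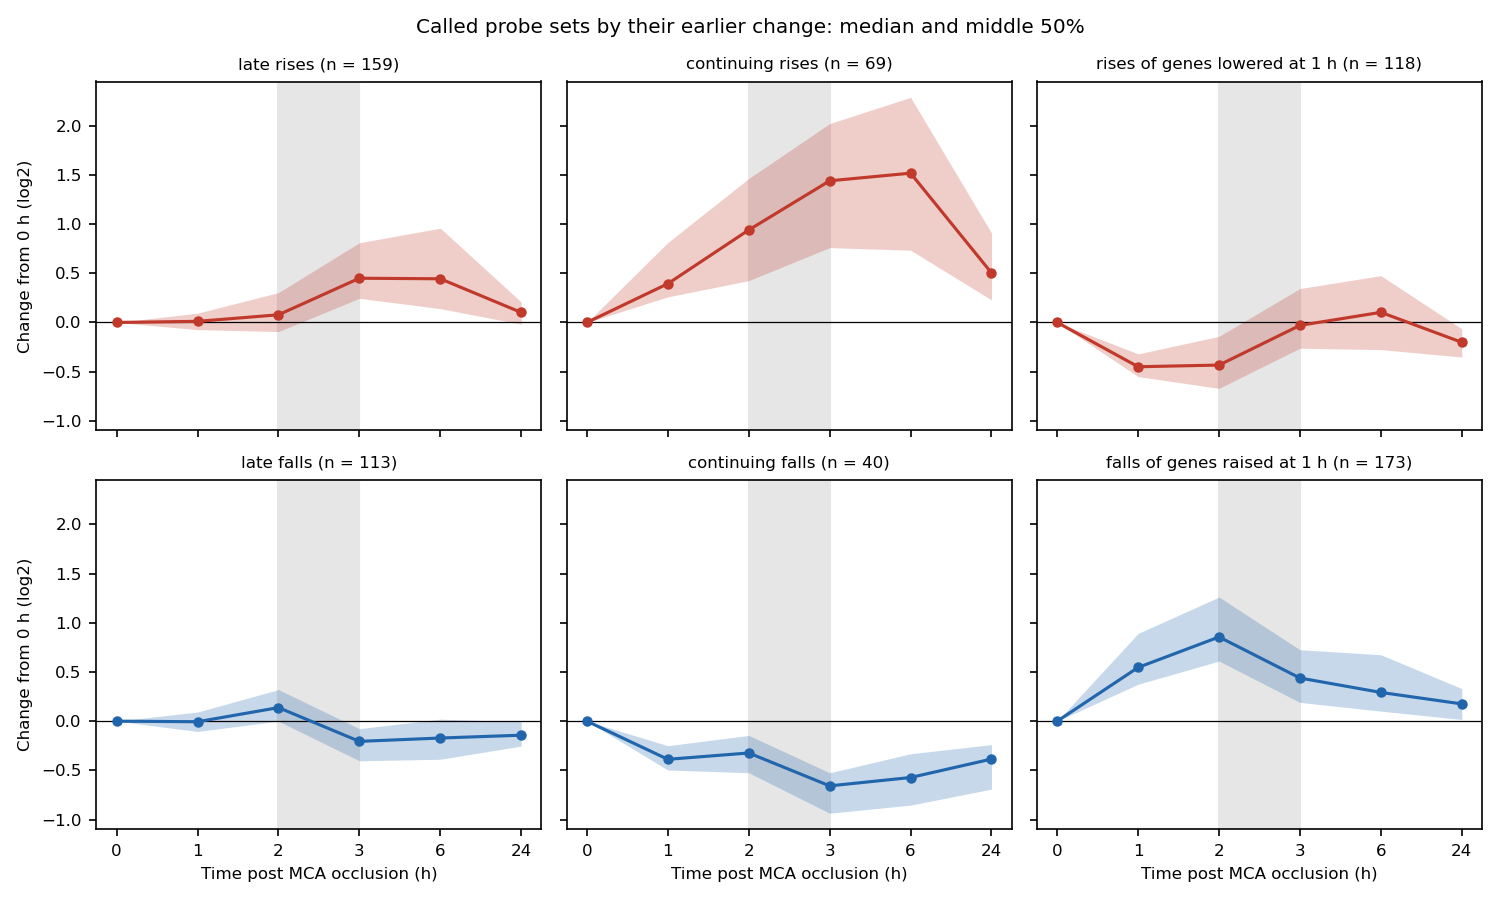
Change from 0 h (log2, vertical axis) against time post MCA occlusion in hours (horizontal axis, evenly spaced points) in the 6 classes of called probe sets. Lines are medians over the probe sets of a class, bands the middle 50%, and the grey band marks the step. The median of the late rises goes from 0.078 at 2 h to 0.45 at 3 h and 0.44 at 6 h, and genes raised at 1 h come down from 0.86 at 2 h to 0.44 at 3 h.

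The arrays of 1 h and 6 h took no part in the step, although they came from the same rats, and were compared for the same probe sets. Of the 364 that rose in the step, 319 (87.6%) had a higher mean at 6 h than at 1 h, and in 254 this difference was called. Of the 337 that fell, 257 (76.3%) had a lower mean at 6 h than at 1 h, and in 137 this was called. Over all probe sets 47.4% had a higher mean at 6 h, 7.85% were called higher and 9.28% called lower. Tgm1, Slc5a3 and Serpinb1a stood higher at 6 h than at 1 h by 3.41, 2.52 and 3.12 on the log2 scale. Arl11 and Il5ra stood lower by 1.45 and 1.51, and Sh2d3c and Nceh1 differed by -0.12 and -0.088 with no call.

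Cytokine receptors and their signalling chain formed the list with the most calls in proportion to its size. Of the 18 genes of interleukin 1, interleukin 6 and SOCS signalling 7 rose and 1 fell, beside 1.32% and 1.22% of all probe sets. The median step of the list was 0.15. Il1rap, the shared partner of the interleukin 1 receptors, rose from 9.59 ± 0.19 to 10.76 ± 0.24 (2.24-fold, adjusted p = 2.18e-06) and had been 8.77 ± 0.30 at 0 h. Il6st, the signal-transducing receptor chain of interleukin 6, rose from 9.21 ± 0.16 to 9.75 ± 0.22 (adjusted p = 0.00147). Stat3, the transcription factor below it, rose from 10.10 ± 0.13 to 10.49 ± 0.12 (adjusted p = 0.00130). Of the inhibitors in the list, Socs3 rose from 8.89 ± 0.26 to 9.45 ± 0.067 (adjusted p = 0.00103) and Cish from 6.96 ± 0.13 to 7.41 ± 0.16 (adjusted p = 0.00148). The chains of the interleukin 10 receptor parted, as Il10rb rose from 10.35 ± 0.075 to 10.59 ± 0.12 and Il10ra fell from 8.85 ± 0.14 to 8.53 ± 0.15. Il6st and Cish at 0 h, 9.17 and 6.98, were close to their 2 h means, while Socs3 at 7.71 and Stat3 at 9.26 had started lower.

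Some genes of protein folding in the endoplasmic reticulum, and regulators of them, rose. In the list of the unfolded protein and amino acid stress responses 3 of 19 rose (1.32% of all probe sets did) and none fell, and the median step was 0.17. With the lowest 25% of signals or the probe sets without a symbol left out, 5 rose. Xbp1, whose spliced form drives the folding genes, rose from 9.37 ± 0.14 to 10.14 ± 0.19 (1.70-fold, adjusted p = 1.25e-05) after 8.74 ± 0.19 at 0 h and 8.70 ± 0.20 at 1 h. Atf6, the sensor that is cleaved to a transcription factor, rose from 9.54 ± 0.14 to 9.85 ± 0.089 (adjusted p = 0.00693) and Creld2, a secreted target of this response, from 7.52 ± 0.17 to 7.85 ± 0.18 (adjusted p = 0.0345). In the list of heat shock proteins and chaperones 2 of 25 rose, again beside 1.32%, both of the endoplasmic reticulum. Hspa5, its main chaperone, rose from 10.90 ± 0.27 to 11.43 ± 0.25 (adjusted p = 0.0166) and Pdia6, a disulfide isomerase, from 7.41 ± 0.31 to 7.93 ± 0.13 (adjusted p = 0.00917). The cytosolic chaperone partner Dnaja1 was 12.49 ± 0.15 at 2 h and 12.19 ± 0.19 at 3 h, with adjusted p = 0.0503, and was called lower under 6 alternatives, the pooled spread and centring among them. The median step of the chaperone list was 0.011. The calls of Creld2, Hspa5 and Pdia6 were lost with the Welch test.

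In glucose metabolism 2 of 26 genes of hypoxia and glycolysis rose and 1 fell, with a list median of 0.027, where 2.54% of all probe sets were called. With the pooled spread 2 rose and 3 fell, Vegfa, Gpi and Pfkfb4. Slc2a1, the basal glucose transporter, rose from 8.56 ± 0.14 to 9.03 ± 0.11 (adjusted p = 2.80e-04), next to Hk2 described above. Pfkfb4, which sets the level of the activator of glycolysis fructose 2,6-bisphosphate, fell from 9.07 ± 0.11 to 8.49 ± 0.14 (adjusted p = 3.13e-05), back to a mean near that of 1 h, 8.49.

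Antigen presentation by MHC class II had 2 of 13 genes called, both higher, and 12 of 13 steps above 0, with a median of 0.19. Over all probe sets 1.32% were called higher and 56.2% of steps were above 0. Ifi30, a lysosomal thiol reductase, rose from 8.81 ± 0.22 to 9.27 ± 0.25 (adjusted p = 0.0194), and RT1-Da, the alpha chain of the class II molecule RT1-D, from 9.14 ± 0.26 to 9.54 ± 0.20 (adjusted p = 0.0492). RT1-DMb, which helps to load peptides, was 7.75 ± 0.24 at 2 h and 8.12 ± 0.23 at 3 h, with adjusted p = 0.0739. RT1-Da remained far from its 0 h value of 10.97 ± 0.12. The median change of the list from 0 h was -0.87 at 1 h and -0.83 at 3 h. With the Welch test neither gene kept its call. The call of RT1-Da was also lost with the intensity trend, centring on the medians and quantile normalization.

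The interferon response list ran the other way, with 20 of 26 steps below 0, against 56.2% above 0 over all probe sets, and a median of -0.17. None rose and 2 fell by the moderated test, beside 1.32% and 1.22% of all probe sets. Outside the list Plscr1, which interferon is known to induce, went the other way with a step of 1.51. The interferon-inducible Ifi27l2b and Rtp4, also outside it, had steps of -0.85 and -0.64. The number lower was 1 with the Welch test, which lost Oasl2, and 4 after centring on the medians, and with the spread pooled over all time points 5 were lower and 1 higher. Oas2, an antiviral oligoadenylate synthetase, fell from 8.77 ± 0.15 to 8.23 ± 0.20 (adjusted p = 9.50e-04) and its relative Oasl2 from 11.06 ± 0.20 to 10.65 ± 0.17 (adjusted p = 0.0138). Ifi44 and Ifih1, an inducible protein of unclear role and a sensor of viral RNA, had steps of -0.29 and -0.25, with adjusted p = 0.0508 and adjusted p = 0.0573. Oas2, Oasl2 and Ifi44 went on to means of 7.32, 9.64 and 7.86 at 24 h, each below its mean before occlusion.

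Promoters were searched for the repeat at the core of the element that carries interferon signals, here the letters TTTCNNTTT on either strand. RefSeq promoters of build GRCr8 were used, which reach from 250 bases before to 50 after each gene's start. The repeat stood in 9.60% of the 198 promoters matched to the 273 single-symbol genes called lower, in 10.8% of the 251 matched to the 314 called higher, and in 11.5% of 27457 promoters in all. The shares of called genes were thus near that of all promoters. Windows from 2 genes of the interferon list whose promoters hold the repeat are shown as examples, with the repeat in capitals, Oasl2 because it fell in the step and Ifi44 because its adjusted p lay next to the threshold. No promoter of Oas2 was matched.
Oasl2, chr12:47383317-47383346, minus strand: aaagctttggTTTCAGTTTccaggcttgag
Ifi44, chr2:243303847-243303876, minus strand: gcacactgagTTTCAGTTTcatttcccagg
The STAT element TTCNNNGAA stood in 8.76% of promoters of genes called higher, 6.57% of those called lower and 8.68% of all. The core ACANNNTGT of the glucocorticoid element stood in 3.98%, 4.55% and 6.60%. Matches of different elements may overlap. A match describes letters in a window and is no evidence of binding.

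Of the glucocorticoid response list 3 of 18 fell and none rose, where 1.22% and 1.32% of all probe sets did. Besides Sgk1, Fkbp5, a chaperone of the glucocorticoid receptor, fell from 10.54 ± 0.15 to 10.14 ± 0.23 (adjusted p = 0.0169), still far above its 0 h mean of 8.56 ± 0.22. Per1, a clock gene that the receptor also drives, fell from 7.44 ± 0.084 to 7.11 ± 0.13 (adjusted p = 0.00464) from 7.53 at 1 h and with 6.73 ± 0.25 at 0 h. Zbtb16, a further target, was 8.38 ± 0.19 at 2 h and 7.99 ± 0.27 at 3 h, with adjusted p = 0.0548. The list median was -0.043, and its median change from 0 h was 0.63 at 2 h and 0.30 at 3 h. The call of Fkbp5 was lost with the Welch test. In the circadian clock list Per1 was the 1 gene of 17 called, beside 2.54% of all probe sets.

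Granule proteins of neutrophils moved in both directions, with 2 of 20 called higher and 3 lower and a median of -0.078, where 1.32% and 1.22% of all probe sets were called. Of the 3 lower, 1 kept its call with the Welch test, which lost Mmp9 and Camp, and 1 with the pooled spread, which lost Mmp9 and Ngp. Hp, haptoglobin, which binds free hemoglobin and is stored in granules, rose from 10.74 ± 0.17 to 11.42 ± 0.21 (adjusted p = 1.86e-04). Slpi, an inhibitor of leukocyte proteases, rose from 10.39 ± 0.13 to 10.87 ± 0.20 (adjusted p = 0.00207). Ngp, an abundant granule protein of the rodent neutrophil, fell from 11.91 ± 0.25 to 11.26 ± 0.24 (adjusted p = 0.00203), Mmp9, gelatinase B, from 11.32 ± 0.25 to 10.88 ± 0.19 (adjusted p = 0.0202) and Camp, the cathelicidin precursor, from 10.07 ± 0.35 to 9.40 ± 0.39 (adjusted p = 0.0261). All 5 had been higher at 2 h than at 0 h, Hp at 8.24 and Mmp9 at 8.57 before occlusion. Ngp returned to 10.86 ± 0.79 at 6 h, near its 10.83 ± 0.36 at 0 h. The spread of Ngp at 6 h was large.

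Among 25 chemokines and chemokine receptors 2 rose and 1 fell, where 2.54% of all probe sets were called. Ccr1, of neutrophils and monocytes, rose from 10.81 ± 0.19 to 11.14 ± 0.18 (adjusted p = 0.0409), a call lost with the Welch test and with the pooled spread. Cxcr4, which holds leukocytes in the bone marrow, fell from 10.15 ± 0.13 to 9.59 ± 0.16 (adjusted p = 1.82e-04). The list median was -0.034.

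Early transcription factors and survival genes gave 1 or 2 calls a list, where 2.54% of all probe sets were called. Jun, a component of AP-1, was the 1 gene of 23 of the immediate early list called, and rose from 8.16 ± 0.30 to 8.81 ± 0.25 (adjusted p = 0.00440). Nr4a1 of the same list was 8.66 ± 0.23 at 2 h and 8.28 ± 0.32 at 3 h, with adjusted p = 0.115. Birc3, an inhibitor of apoptosis that NF-kB induces, was the 1 of 17 of the NF-kB list called, and rose from 9.49 ± 0.19 to 10.24 ± 0.31 (adjusted p = 6.40e-04). It had been 9.11 ± 0.16 at 0 h and 8.58 ± 0.22 at 1 h. Of 25 genes of the TNF family and apoptosis 2 fell, Fas and Bcl2a1, the latter a survival protein of leukocytes that fell from 9.49 ± 0.19 to 9.08 ± 0.24 (adjusted p = 0.0280) and lost its call with the Welch test. In the cell cycle list Rrm2 and Cenpf were the 2 of 34 called, both higher, and Cenpf, a centromere protein, rose from 7.93 ± 0.17 to 8.23 ± 0.10 (adjusted p = 0.0281). With the Welch test or the pooled spread Rrm2 alone was called. Cdk1, the main kinase of the list, was 5.80 ± 0.10 at 2 h and 6.02 ± 0.12 at 3 h, with adjusted p = 0.0591.

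Large lists of basic cell functions had no call by the moderated test, where 2.54% of all probe sets were called. The lists were 76 cytosolic ribosomal proteins, 70 genes of the respiratory chain, 37 of the proteasome and 32 splicing factors, with median steps of -0.012, 0.036, 0.058 and 0.020. At an unadjusted p below 0.05 there were 4, 6, 10 and 3 genes, beside 4071 of all 27596 probe sets. The lowest adjusted p values were those of Rpl17 (step -0.27, adjusted p = 0.0572), Ndufs5 (-0.22, adjusted p = 0.0555), Psmd1 (0.23, adjusted p = 0.0764) and Hnrnpf (0.33, adjusted p = 0.0625). Each of these 4 passed the threshold under at least 1 other setting.

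**Figure D4:**
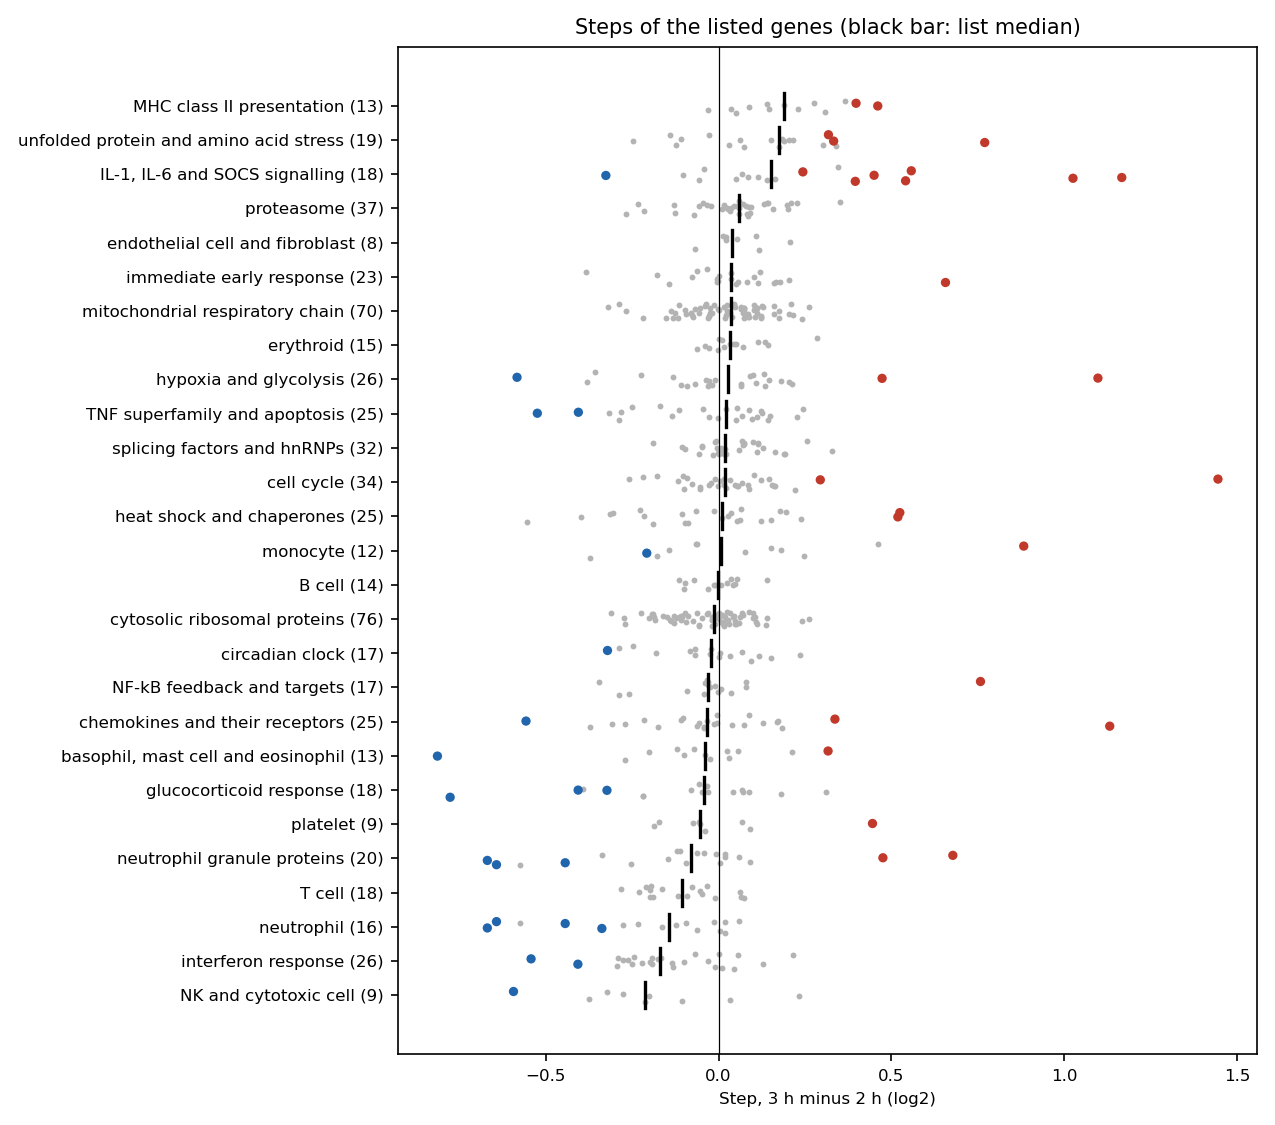
Steps from 2 h to 3 h (log2, horizontal axis) of the genes of 27 lists (rows, with the number of genes matched), 1 point per gene, with called rises in red, called falls in blue and the list median as a black bar. MHC class II genes lie mostly to the right with a median of 0.19, and interferon response genes mostly to the left with a median of -0.17.

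Markers of blood cell types were measured beside these programmes, and their part in the changes above was not tested. Their counts stand beside 1.32% of all probe sets called higher, 1.22% called lower and 56.2% of steps above 0. An unadjusted p below 0.05 was found for 4071 of all 27596 probe sets. The neutrophil list had 4 of 16 genes lower, Ngp, Padi4, Mmp9 and Camp, and none higher, with 12 of 16 steps below 0 and a median of -0.14. Of the 4, 2 kept their calls with the Welch test (Ngp and Padi4) and 2 with the pooled spread (Padi4 and Camp). Padi4, which citrullinates histones in neutrophils, fell from 8.11 ± 0.15 to 7.77 ± 0.11 (adjusted p = 0.00894). The list still stood at a median of 1.05 above 0 h at 3 h, after 1.19 at 2 h. Of the T cell list none of 18 was called by the moderated test, 2 had an unadjusted p below 0.05, 15 steps were below 0 and the median was -0.11. Cd4 was 9.65 ± 0.16 at 2 h and 9.36 ± 0.35 at 3 h, with adjusted p = 0.274, and Cd8a 10.25 ± 0.19 at 2 h and 10.02 ± 0.29 at 3 h, with adjusted p = 0.345. In the list of natural killer and cytotoxic cells Gzma was the 1 of 9 called, 7 steps were below 0 and the median was -0.21. Prf1, perforin, was 9.74 ± 0.20 at 2 h and 9.37 ± 0.38 at 3 h, with adjusted p = 0.170.

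None of 14 B cell markers was called or had an unadjusted p below 0.05, which 4071 of all 27596 probe sets had. The median step of these markers was -0.0010, after a median change from 0 h of -1.73 at 2 h. Ms4a1, the CD20 antigen, was 7.58 ± 0.23 at 2 h and 7.72 ± 0.28 at 3 h, with adjusted p = 0.626. In the monocyte list Vcan rose and Fcgr1a, a high-affinity Fc receptor, fell from 11.90 ± 0.073 to 11.69 ± 0.10 (adjusted p = 0.0496), and the other 10 of 12 were not called. Cd14, the coreceptor for lipopolysaccharide, was 8.80 ± 0.34 at 2 h and 9.26 ± 0.48 at 3 h, with adjusted p = 0.210. Of 9 platelet markers Selp, P-selectin, rose from 7.41 ± 0.19 to 7.85 ± 0.23 (adjusted p = 0.0138), while Pf4, platelet factor 4, was 13.08 ± 0.093 at 2 h and 13.04 ± 0.077 at 3 h, with adjusted p = 0.799. In the platelet list 6 of the 9 steps were below 0, and the median was -0.053. No erythroid marker of 15 was called, 1 had an unadjusted p below 0.05, and Alas2, the first enzyme of heme synthesis in red cells, was 13.38 ± 0.062 at 2 h and 13.35 ± 0.058 at 3 h. Of 13 markers of basophils, mast cells and eosinophils Il5ra fell and Siglec8 rose from 11.38 ± 0.10 to 11.70 ± 0.091 (adjusted p = 0.00268). Ccr3, the eotaxin receptor of eosinophils, was 6.12 ± 0.18 at 2 h and 5.85 ± 0.21 at 3 h, with adjusted p = 0.140. The calls of Fcgr1a and Siglec8 were lost with the pooled spread, that of Fcgr1a also after quantile normalization of the means, and that of Selp with the Welch test. None of 8 markers of endothelial cells and fibroblasts was called and 1 had an unadjusted p below 0.05.

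**Figure D5:**
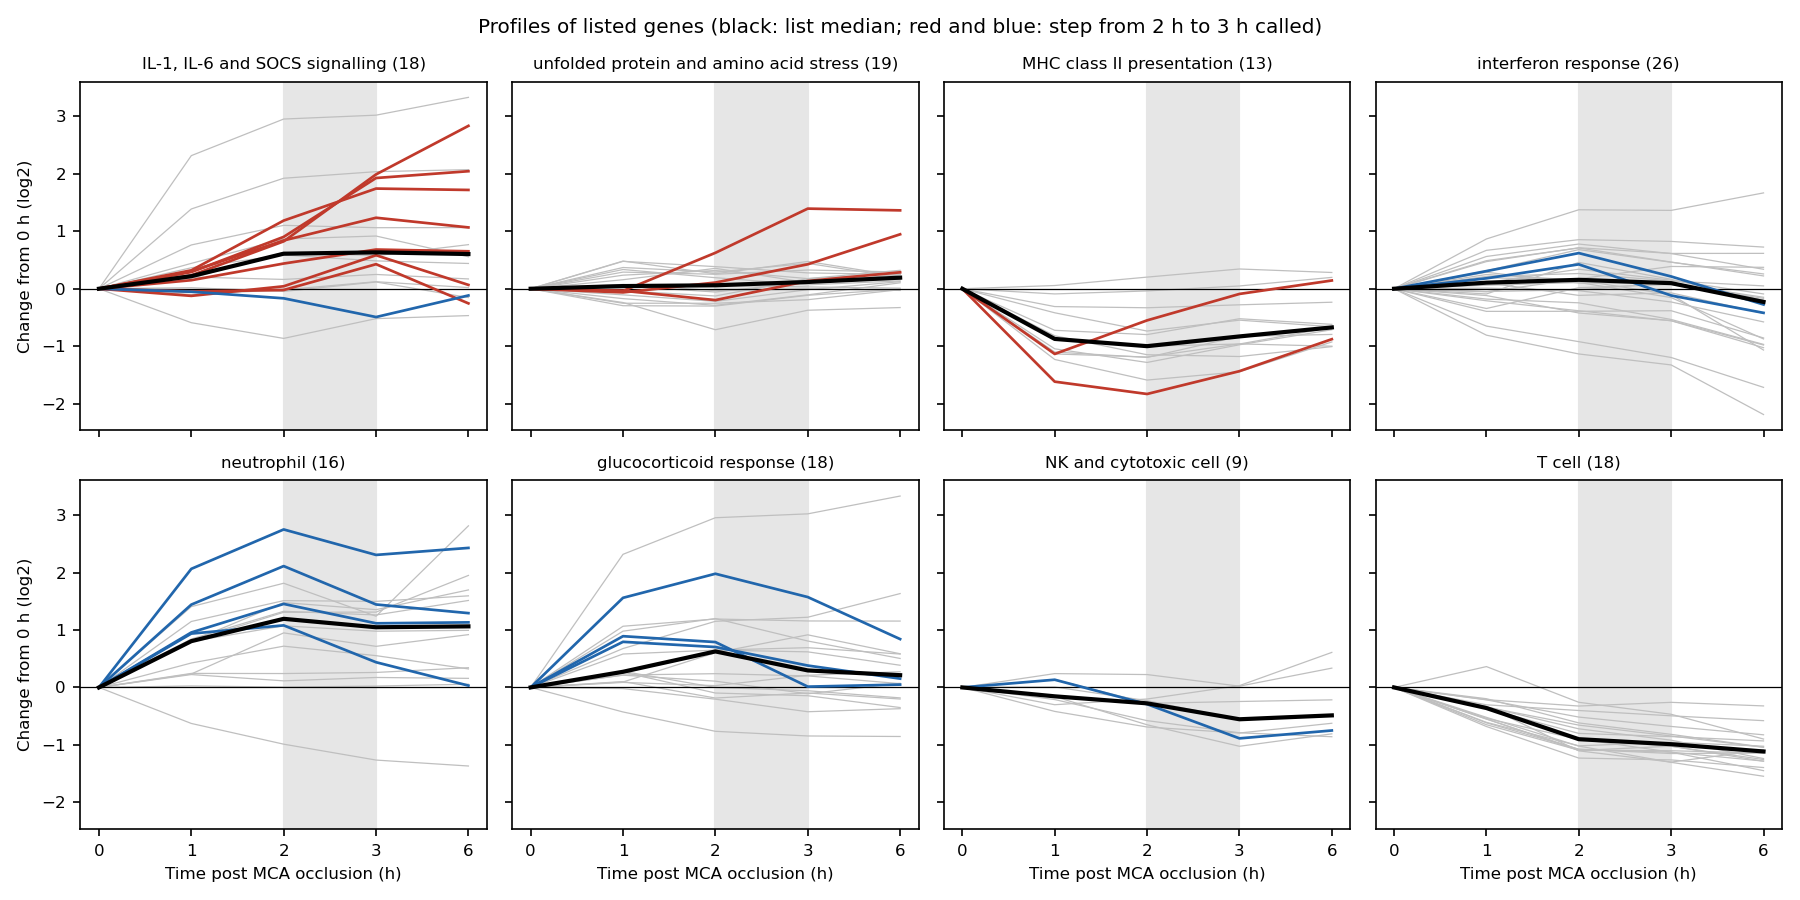
Change from 0 h (log2, vertical axis) against time post MCA occlusion in hours (horizontal axis, 0 to 6 h, evenly spaced points) for the genes of 8 lists, with the number of genes in brackets. Each thin line is 1 gene, in red or blue where its step was called, the black line is the list median and the grey band marks the step. The neutrophil median is 1.19 at 2 h and 1.05 at 3 h, and the T cell median continues downwards from -0.90 to -0.99.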

How the data were processed

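Blood RNA of 8 SHR rats was hybridized to 47 Affymetrix RaGene 1.0 ST arrays. The authors summarized the arrays by RMA and deposited log2 means and log2 SDs per time point, with annotation on rn5. Deposited fold changes, p-values, FDRs and F-tests were the authors' own comparisons and were not used. The 47 single-array columns were not used, since their names match no rat or time point, so values per rat and pairing are not analysed here. The difference of means was tested with limma's moderated statistic (limma 3.58.1, R 4.3.3), computed from deposited means, SDs and array numbers instead of the planned fit to arrays, two-sided, with Benjamini-Hochberg adjustment over all 27596 probe sets and no filter. It treats the arrays as independent although both times came from the same rats, so p-values measure the spread between arrays. The prior had 5.87 degrees of freedom beside 14 residual ones. The number of arrays limits the precision. Workup batches were randomized according to the methods and are not in the labels.

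On simulated data of 27596 probe sets the test recovered 84 of 100 steps of 0.5 and 98 of 100 steps of 1, and 9% of its 200 calls were false. Named genes were the 12 largest rises and falls, the 5 largest steps of each class and the 3 lowest p-values of each list, among probe sets with 1 symbol. Some of the genes so chosen are not reported here. Msr1, Mrc1, Il6st, Stat3, Cish, Il10ra, Il10rb, Camp, Zbtb16, Ifih1, Cd14, Pf4, Alas2 and Ccr3 were added after their values had been seen. Lists (27, with 635 of 682 genes matched) and classes were chosen with earlier results of these data known. Of the called probe sets 89.3% had a symbol. Promoter sequences came from RefSeq (GRCr8). Figures were drawn with matplotlib 3.10.9. Alternatives were another spread, scaling, filter or threshold.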

Additional observations from a re-analysis of the deposited data

How the results depend on the processing

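With the unmoderated Welch test 201 probe sets were higher and 186 lower, with 97 late rises, 50 late falls, 40 continuing rises, 16 continuing falls, 113 falls of genes raised at 1 h and 48 rises of genes lowered at 1 h. Of those called, 193 higher and 179 lower were shared with the 364 and 337 reported. With the spread pooled over all 6 time points there were 266 late rises and 188 late falls. Centring on the medians left 44 continuing rises. An adjusted p below 0.01 left 161 higher and 152 lower, and a step over 0.5 left 119 and 96. Limiting the early change to 0.1 left 97 late rises and 53 late falls. The other counts over all probe sets and of the classes stayed within 1.5 times under the alternatives run, with 313 to 525 higher and 325 to 448 lower, while several counts of list members moved further. Keeping 1 of each set of identical probe sets, chosen after seeing the data, gave 366 and 336. No named gene changed direction. Only centring and quantile normalization altered the steps, so no other setting could have reversed one. Of the 69 named genes called, 62 kept the call with the pooled spread, 44 with the Welch test, 67 with the intensity trend, 68 after centring and 66 with the means quantile normalized. Calls higher made up 51.9% of all calls and 45.7% after centring.

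No paired analysis was possible because the single-array columns carry no rat or time point, and for the same reason no rat was left out in turn. Whether low signals were above background was not assessed.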
